A study of Mus musculus with 2 samples.

Results

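The 10 genes of prostaglandin synthesis, reception and breakdown described here are the cyclooxygenases Ptgs1 and Ptgs2, the terminal synthases Ptges, Ptgis and Ptgds, the receptors Ptger2, Ptger4, Ptgfr and Ptgir, and the degrading enzyme Hpgd. They were chosen by gene symbol, and all 10 were found among the 16637 named genes of the array, on 14 probes.

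Prostaglandins are lipid signals that cells make from arachidonic acid and that act on nearby cells through receptors coupled to G proteins. Cyclooxygenases turn arachidonic acid into a common intermediate, terminal synthases shape that intermediate into a given prostaglandin or prostacyclin, and a dehydrogenase inactivates the products. Preadipocytes make and sense these lipids: prostacyclin acting on its receptor favours fat cell formation, while prostaglandin F2α and prostaglandin E2 are known to restrain it.

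The arrays measured messenger RNA in mouse embryonic fibroblasts labelled as lacking Xbp1, a transcription factor of the response to unfolded protein, with 1 sample on day 3 of induced fat cell formation and 1 on day 0, when the culture was confluent. The inducing medium, applied for 72 h, held insulin at 10 µg/ml, troglitazone (an agonist of the nuclear receptor PPARγ) at 5 µM, DXM also at 5 µM, and IBMX, an inhibitor of the phosphodiesterases that degrade cAMP, at 0.25 mM. The protocol also lists maintenance insulin at 1 µg/ml, and whether the day 3 sample had reached that step was not established here. The design asked how expression on day 3 stood against day 0. Both samples carry the knockout label, no cells with intact Xbp1 were analysed here, and the labels do not say how the knockout cells were derived.

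With 1 array per day there was no test, no difference has a replicate check, and values describe these arrays. A 2-fold difference was the size used to call a gene higher or lower. Signals are quantile-normalized fluorescence intensities, and genes count as detected if they read above 122, the median over the gene probes, on either day. The median raw intensity was 166 on day 3 and 78 on day 0. The Xbp1 probe read 13561 on day 3 and 20936 on day 0. Where it lies in the gene is unknown here, so it does not check the knockout label. All 10 fibroblast markers were detected, and 0 of 7 adipocyte markers, 0 of 5 mast cell markers, 2 of 5 endothelial markers, 3 of 6 leukocyte markers, 2 of 6 epithelial markers and 4 of 4 smooth muscle markers were. The adipocyte markers, though below the threshold, summed to 310.5 on day 3 and 88 on day 0. The brightest on day 3, Adipoq, read 120.5 on day 3 and 12 on day 0, while Cfd read 7.5 on day 3 and 15.5 on day 0. The leukocyte markers summed to 40043.5 on day 3 and 16574 on day 0, nearly all of it from Cd14 (39698.5 and 16036), while Ptprc, the defining leukocyte marker, read 1.5 on day 3 and -0.5 on day 0. The smooth muscle markers summed to 18000.2 on day 3 and 45359.5 on day 0, most of it from Acta2 (16335 and 44635.5), although the median log2 difference of the 4 was 1.17. The part of such shifts in the values below was not tested. In bulk cultures fewer cells that express a gene and less of its RNA per cell cannot be told apart.

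Both cyclooxygenase genes were higher on day 3, and no other gene of the 10 differed by 2-fold among those detected. Ptgs1 was 3.51-fold and Ptgs2 3.40-fold higher, while the synthases Ptges and Ptgis and the receptors Ptger2 and Ptgir differed by less than 2-fold. Ptgds, Ptger4, Ptgfr and Hpgd were below the threshold on both days. Thus 6 of the 10 genes were detected, 2 of these 6 were at least 2-fold higher and 0 were at least 2-fold lower. Over all 10656 detected genes, 12.8% were at least 2-fold higher and 10.3% at least 2-fold lower. The median log2 difference of the 6 was 0.53, against 0.03 for all detected genes.

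**Figure D1:**
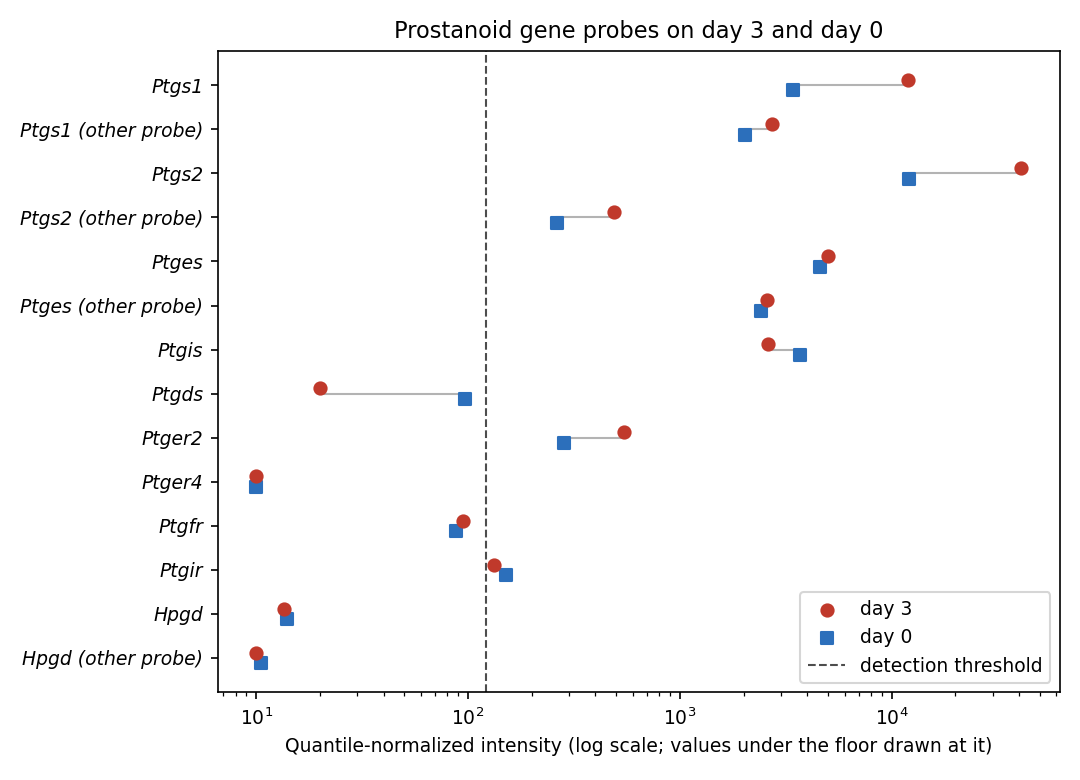
Quantile-normalized intensity (log axis) of the 14 probes of the prostanoid genes, with circles for day 3, squares for day 0 and a dashed line at the detection threshold of 122. The brighter probes of Ptgs1 and Ptgs2 show the widest gaps toward day 3 among detected probes, and the probes of Ptgds, Ptger4, Ptgfr and Hpgd lie left of the line on both days.

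Ptgs2 encodes the inducible cyclooxygenase, which cells switch on in response to growth factors, cytokines and cAMP. Its brighter probe read 41014.5 on day 3 and 12047 on day 0, and its dimmer probe read 490 on day 3 and 264.5 on day 0. Both probes were thus higher on day 3, the brighter by a log2 difference of 1.77 and the dimmer by 0.89. Ptgs1 encodes the cyclooxygenase that many tissues make constantly. Its brighter probe read 11981 on day 3 and 3411 on day 0, and the log2 difference was 1.81. The other Ptgs1 probe read 2733.25 on day 3 and 2034.5 on day 0, so its log2 difference was 0.43, close to the repeat-spot SD of 0.39 at its signal. For Ptgs1, then, the size of the difference depended on the probe, and the dimmer probe stayed under 2-fold.

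The gap of 1.39 between the log2 differences of the Ptgs1 probes was wide for this array. Among 1383 genes with exactly 2 probes above the threshold on both days the median gap was 0.50, and 11.1% of them had a gap at least as wide as that of Ptgs1. For Ptgs2 the gap was 0.88, which 26.8% of those genes reached. The transcripts or exons that each probe recognises are unknown here.

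The scatter between control spots printed 5 or 6 times gave a technical error for a difference between the days. At the signal of the brighter cyclooxygenase probes it was 0.36 (SD, log2) from the median feature and 0.85 when pooled over features, which weighs the noisier ones more. Both log2 differences, 1.81 and 1.77, exceeded these values. Taken spot by spot, so that a spot's place on the array is shared by both days, the SD was 0.095 from the median feature and 0.11 pooled. For the dimmer Ptgs2 probe the SD was 0.44 from the median feature and 0.78 pooled, and its log2 difference of 0.89 exceeded both. For the dimmer Ptgs1 probe the pooled SD was 0.57, above its log2 difference of 0.43. None of these covers variation between cultures or hybridizations.

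Among the 9434 genes above the threshold on both days, 190 had a larger difference toward day 3 than Ptgs1 and 211 had a larger one than Ptgs2. Among genes within 0.5 log2 units of the same mean signal, 8.51% of 1046 genes near Ptgs1 and 8.03% of 361 genes near Ptgs2 were at least 2-fold higher. Larger differences toward day 3 than those of the cyclooxygenases were held by 1.72% of the genes near Ptgs1 and 1.94% of the genes near Ptgs2.

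**Figure D2:**
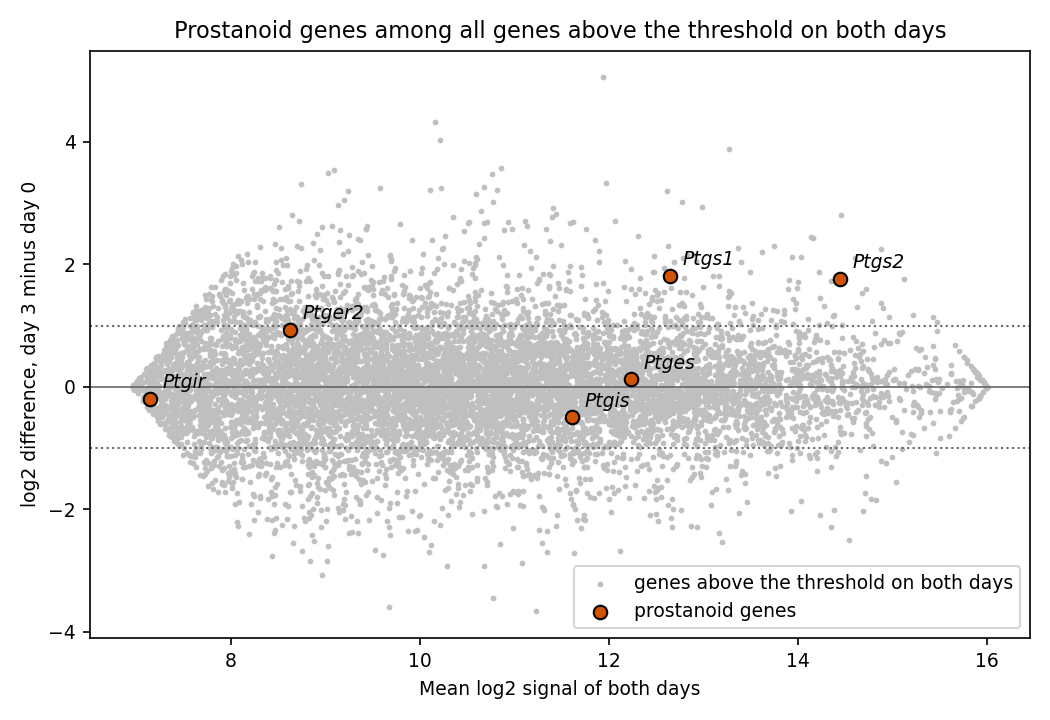
The log2 difference, day 3 minus day 0, against the mean log2 signal of both days for the 9434 genes above the threshold on both days (grey), with the 6 detected prostanoid genes as orange points and dotted lines at 2-fold. Ptgs1 (1.81) and Ptgs2 (1.77) lie above the upper line, Ptger2 (0.93) just under it, and Ptges (0.12), Ptgir (-0.19) and Ptgis (-0.50) between the lines.

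The promoters of the cyclooxygenase genes are shown because both genes were higher on day 3 and Ptgs2 is known to respond to cAMP and to C/EBP factors. Each run holds 250 bases before and 50 after the RefSeq start, assembly GRCm38.p6, on the plus strand. Capitals mark matches on either strand to any of 5 motifs. The core of a cAMP response element was searched as ACGTCA. A C/EBP palindrome was searched as TTGCGCAA. The E-box was spelled CACGTG, which can overlap the first motif. The GC box was spelled GGGCGG, and a further search used the TATA box as TATAAA.
Ptgs2, chr1:150099781-150100080: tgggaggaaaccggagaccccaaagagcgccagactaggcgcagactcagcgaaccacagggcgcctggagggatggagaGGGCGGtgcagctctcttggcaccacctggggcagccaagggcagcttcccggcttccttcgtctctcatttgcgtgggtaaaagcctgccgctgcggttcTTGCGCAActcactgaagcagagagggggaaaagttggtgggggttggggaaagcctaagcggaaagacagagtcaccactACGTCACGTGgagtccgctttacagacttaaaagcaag
Ptgs1, chr2:36230176-36230475: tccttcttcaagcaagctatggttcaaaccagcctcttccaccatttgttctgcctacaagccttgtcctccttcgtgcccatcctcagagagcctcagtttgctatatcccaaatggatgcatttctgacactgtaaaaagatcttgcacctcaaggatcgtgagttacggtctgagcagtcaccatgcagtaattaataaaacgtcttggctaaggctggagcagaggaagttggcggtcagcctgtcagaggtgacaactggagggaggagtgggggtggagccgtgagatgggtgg
The Ptgs2 window held 4 matches and the Ptgs1 window 0. In Ptgs2, counted from the annotated start, the GC box began at -170, TTGCGCAA at -69, ACGTCA at 13 and CACGTG at 17, and these last motifs share 2 bases. Of 32851 promoters of this length in the table, 0.183% held TTGCGCAA, 7.51% ACGTCA, 7.15% CACGTG, 35.7% GGGCGG and 13.6% TATAAA. Of the 9 listed genes with a promoter in the table, Ptgs2 was the only one with ACGTCA, TTGCGCAA or CACGTG. The cAMP and C/EBP motifs are those of factors already known to act on Ptgs2. Its matches to them could be anticipated and are not a finding of these data. GC boxes occurred in 6 of the 9, which were Ptgs2, Ptges, Ptger4, Ptgfr, Ptgir and Hpgd, and TATAAA occurred in Hpgd. Letter matches do not show binding, and no motif was shared by Ptgs1 and Ptgs2.

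The terminal synthases Ptges and Ptgis differed by less than 2-fold. Ptges encodes microsomal prostaglandin E synthase, which is often induced together with Ptgs2. Its brighter probe read 5016.25 on day 3 and 4609.5 on day 0, and its other probe read 2594 on day 3 and 2420.75 on day 0. Both probes were nearly level between the days, with log2 differences of 0.12 and 0.10 that were smaller than the repeat-spot SDs of 0.36 and 0.39.

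Ptgis encodes prostacyclin synthase. It read 2618 on day 3 and 3698 on day 0, with a log2 difference of -0.50. That is 1.41-fold lower on day 3, beyond the repeat-spot SD of 0.39 from the median feature and within the pooled SD of 0.57. Its raw intensities were nearly equal, 3040 on day 3 and 3168 on day 0, on arrays whose median raw intensity was 166 on day 3 and 78 on day 0. Ptgds, the lipocalin-type prostaglandin D synthase, read 20 on day 3 and 96.5 on day 0, both below the threshold, so no fold is given. Its raw intensities of 29 on day 3 and 62 on day 0 exceeded the 95th percentile of empty spots, 9 on day 3 and 7 on day 0.

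Of the 4 receptors among the 10 genes, Ptger2 and Ptgir were detected. Ptger2 encodes EP2, a prostaglandin E receptor that raises cAMP, and read 543 on day 3 and 284.5 on day 0. The ratio of 1.91 lay just under 2-fold, and the log2 difference of 0.93 exceeded the repeat-spot SD of 0.44 and the pooled SD of 0.78. Of 1472 genes within 0.5 log2 units of its mean, 16.6% had a larger difference toward day 3 than Ptger2, against the 1.72% and 1.94% given above for Ptgs1 and Ptgs2 at their own brightness.

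Ptgir, which encodes the prostacyclin receptor, lay just above the threshold. It read 132.5 on day 3 and 151.5 on day 0, and its log2 difference of -0.19 compares with a repeat-spot error of 0.42 (SD). The difference was smaller than that error. Ptgfr, the receptor for prostaglandin F2α, read 94.5 on day 3 and 88 on day 0, below the threshold. Its raw intensities of 128 on day 3 and 56 on day 0 nonetheless exceeded the 95th percentile of empty spots, 9 on day 3 and 7 on day 0.

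Ptger4, which encodes EP4, the other prostaglandin E receptor that raises cAMP, read 4.5 on day 3 and 6 on day 0. Its raw values of 7 on day 3 and 3 on day 0 did not exceed those percentiles. Hpgd, the dehydrogenase that begins prostaglandin breakdown, read 13.5 on day 3 and 14 on day 0 by 1 probe and -3.5 on day 3 and 10.5 on day 0 by the other. The raw values of the first Hpgd probe, 19 on day 3 and 8 on day 0, exceeded those percentiles. Those of the other, -3 on day 3 and 6 on day 0, did not. A dim probe does not show that its messenger is absent, so Ptgds, Ptger4, Ptgfr and Hpgd are described only as below the threshold.

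The direction of the cyclooxygenase differences held under every way of processing tried for the gene values. Over the main setting and 11 alternatives, Ptgs1 ranged from 1.12 to 2.23 and Ptgs2 from 1.09 to 2.18 on the log2 scale, at least 2-fold higher in each of the 12. Some alternatives changed only the detection rule or raised signals below the threshold to it. These could not move such bright probes and repeated the main values, 1.81 and 1.77. The authors' deposited table of the same arrays gave 1.81 and 1.75. The alternatives that rescale the arrays moved all genes: the median of all detected genes was -0.49 under median scaling over all gene probes and 0.67 with no normalization. At least 2-fold differences were toward day 3 in 55.5% of cases in the main setting, in 24.3% under that median scaling, in 66.4% under median scaling over the probes detected on both days and in 92.6% with no normalization. Relative to the median of all genes, Ptgs1 ranged from 1.12 to 1.84 and Ptgs2 from 1.33 to 1.87. The lowest value of each came from averaging its probes.

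On the same relative scale Ptger2 ranged from 0.80 to 1.10 and passed 2-fold in 4 of the 12 settings. Ptgis was below 0 in all 12, between -0.73 and -0.50, and under 2-fold on that scale, while as read it reached -1.15 under median scaling over all gene probes. Ptges, from -0.13 to 0.12, and Ptgir, from -0.34 to 0.26 over the 11 settings that gave it a value, changed sign between settings. The dimmer Ptgs1 probe ranged from 0.23 to 0.43 relative to all genes. As read, its sign turned under median scaling over all gene probes, at -0.19. The dimmer Ptgs2 probe ranged from 0.75 to 1.07 relative to all genes.

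**Figure D3:**
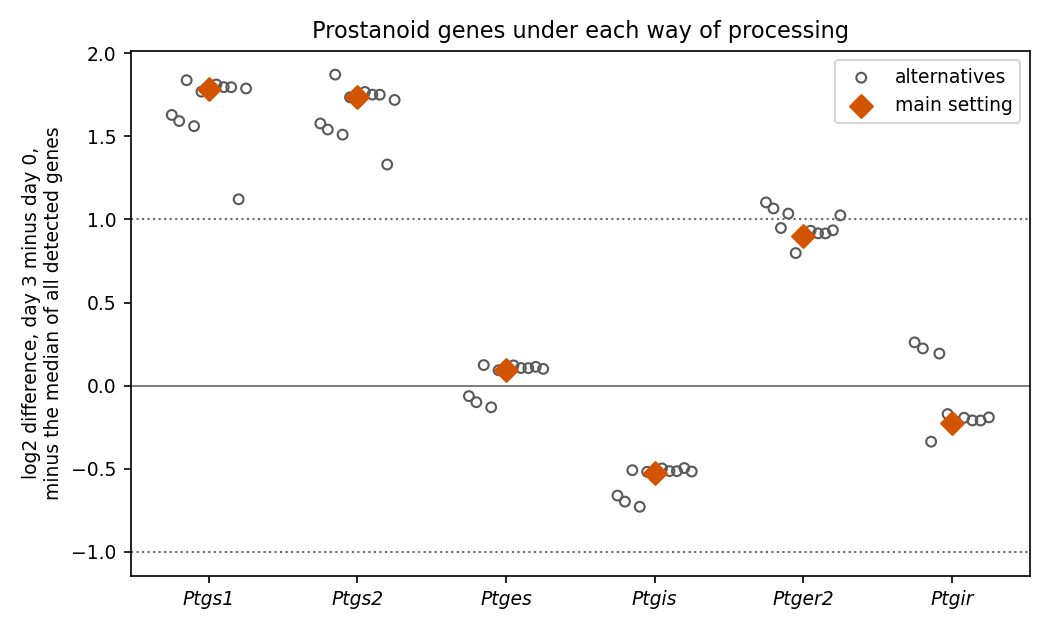
The log2 difference, day 3 minus day 0, of the 6 detected prostanoid genes after subtracting the median of all detected genes, in the main setting (diamonds) and under the alternatives (open circles), with dotted lines at 2-fold. Ptgs1 and Ptgs2 stay above the upper line in all 12 settings, Ptger2 straddles it, and Ptges and Ptgir straddle 0.

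Arachidonic acid, the substrate of the cyclooxygenases, is released from lipids by some enzymes and returned to them by others. Of 22 genes of arachidonate release and reacylation on the array, 19 were detected, 8 of these were at least 2-fold higher and 0 were at least 2-fold lower, beside 12.8% and 10.3% of all detected genes. When signals below the threshold were raised to it, 5 of the 19 were at least 2-fold higher, beside 10.2% of all detected genes. The list median was 0.56, against 0.03 for all detected genes.

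Pla2g4a encodes the cytosolic phospholipase A2 that releases arachidonic acid from membranes. It read 2585 on day 3 and 655 on day 0, a 3.95-fold higher signal. The log2 difference of 1.98 compares with a repeat-spot SD of 0.39 and a pooled SD of 0.57. In the RefSeq gene table Pla2g4a is the protein-coding gene next to Ptgs2, and the neighbour on the other side of Ptgs2, Pdc, was below the threshold (3 on day 3 and 4.5 on day 0). The neighbours were examined after the values of Pla2g4a and Ptgs2 had been seen. Beside other listed genes, the neighbours B4galt5 (next to Ptgis, log2 difference 1.48) and Lcn12 (next to Ptgds, 1.13) also passed 2-fold toward day 3. The remaining detected neighbours did not reach 2-fold in either direction, the lowest being Prrx2, next to Ptges, at -0.90.

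Acsl4, the acyl-CoA synthetase that prefers arachidonic acid and readies it for return to lipids, read 26568 on day 3 and 8749.5 on day 0. The log2 difference was 1.60, and the other 3 Acsl4 probes gave 1.63, 1.20 and 1.26, so all 4 probes passed 2-fold. Mgll, the lipase that frees arachidonic acid from a monoglyceride endocannabinoid, read 457 on day 3 and 87 on day 0. Because the day 0 signal was below the threshold, it was at least 3.75-fold higher.

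Of the other named genes of the list, 1 passed 2-fold with both days above the threshold. Plaat3, a phospholipase of fat cells, read 384 on day 3 and 156 on day 0 (log2 difference 1.30). Dagla, which makes the same endocannabinoid, read 229 on day 3 and 79.5 on day 0, a bound of at least 1.88-fold that does not reach 2-fold, while its other probe read 128.5 on day 3 and 84 on day 0. Pla2g2e, a secreted phospholipase, read 217.5 on day 3 and 55.5 on day 0, a bound of at least 1.78-fold, while its other probe lay below the threshold on both days. Anxa1, an inhibitor of phospholipase activity that glucocorticoids are known to induce, read 9187 on day 3 and 9558.5 on day 0, and the log2 difference was -0.06.

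Among the remaining prostanoid genes, 17 of 18 listed were on the array and 13 were detected. Of these, 2 were at least 2-fold higher and 1 at least 2-fold lower, beside 12.8% and 10.3% of all detected genes. Their median was 0.32. The higher genes were receptors: Ptger1, which encodes EP1 and signals through calcium, read 699.5 on day 3 and 300 on day 0. Ptgdr2, a prostaglandin D receptor, read 325 on day 3 and 157.5 on day 0. Their log2 differences were 1.22 and 1.05.

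The lower gene was Akr1c18, an aldo-keto reductase that inactivates progesterone and can make prostaglandin F2α. It read 112.5 on day 3, below the threshold, and 858.5 on day 0, so it was at least 7.04-fold lower on day 3. Abcc4, a transporter that exports prostaglandins, read 6363.5 on day 3 and 3333 on day 0, and the log2 difference of 0.93 did not reach 2-fold. Slco2a1, which carries prostaglandins into cells, read 1675 on day 3 and 1538 on day 0 (log2 difference 0.12).

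**Figure D4:**
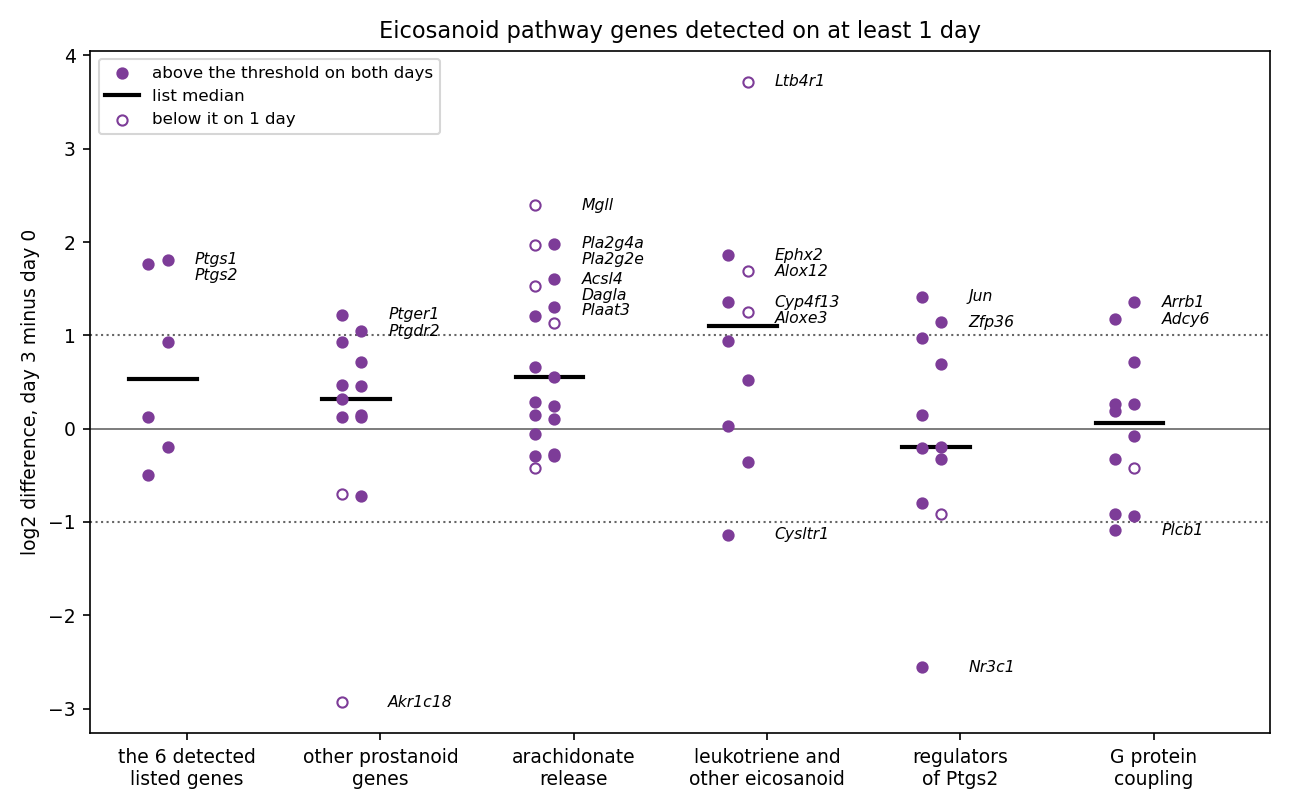
The log2 difference, day 3 minus day 0, of genes detected on at least 1 day in 6 lists, with filled points above the threshold on both days, open points below it on 1 day, bars at list medians and dotted lines at 2-fold. Named points are at least 2-fold different, with at most 6 named per list. The arachidonate list holds 8 genes above the upper line and 0 below the lower one.

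Known regulators of Ptgs2 differed in both directions. All 11 on the array were detected, 2 were at least 2-fold higher, 1 was at least 2-fold lower and the median was -0.20. Of all detected genes, 12.8% were at least 2-fold higher and 10.3% at least 2-fold lower. Jun, an AP-1 factor, read 6055.5 on day 3 and 2270.5 on day 0, and the log2 difference was 1.42. Zfp36, whose product speeds the decay of messengers with AU-rich elements, Ptgs2 among them, read 2081 on day 3 and 945.5 on day 0, so the log2 values differed by 1.14. Nr3c1, the glucocorticoid receptor gene, read 165.5 on day 3 and 974.75 on day 0 (log2 difference -2.56). Cebpb and Nfkb1, which encode transcription factors known to act on Ptgs2, gave 0.69 and -0.32 and did not reach 2-fold. Creb1, also among these regulators, read 119.5 on day 3, below the threshold, and 225.5 on day 0. By this brightest probe it was at least 1.85-fold lower on day 3. Its other probes gave log2 differences of -0.26 and -1.63, also with day 3 below the threshold.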

How the data were processed

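Total RNA (1 µg) from each culture was amplified and labelled with Cy5 by Phalanx, per the labels' protocols. The deposited per-sample tables give 1 linear intensity for each of 39200 spots. No source used here gives the scanner, image software or background method. The median over the 7402 empty spots was 0 on each day, so background appears to be subtracted. The authors' deposited table holds intensity values for 11482 of 29922 gene probes, with column medians of 1414 on both days on a linear scale. How it was made is not given. It kept the rank order of the per-sample intensities (rank correlation 1 on each day), and its sorted columns agreed within 1% for 99.8% of values. It served as an alternative but is not an independent measurement.

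Quantile normalization of the gene probes (limma 3.58.1, R 4.3.3) was followed by a floor of 10 and log2. Where 1 day was below the threshold of 122, the fold is a lower bound against it. Signals of 65000 or more count as saturated, and 0 probes of the 10 genes were. Names came from the platform annotation, updated through RefSeq (GRCm38.p6): 21020 probes had 1 symbol, 8902 had none, and 3410 were matched through a synonym. Each gene took the values of its brightest probe by mean log2. Promoter sequences are RefSeq's, and Ptgis is not in that table. The calculation was tested on simulated arrays. Alternatives changed the normalization, offset, floor, detection filter, probe rule and fold threshold. The number of arrays limits the precision.

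The 10 genes, the lists and the alternatives were chosen with earlier results of these data known. Named were the 10 genes whatever their values and, per other list, up to 6 detected genes at least 2-fold different. Anxa1, Abcc4, Slco2a1, Cebpb, Nfkb1, Creb1, Pdc, B4galt5, Lcn12, Prrx2, Alox5, Ltc4s and Gnas fall outside it, picked once values were known. So do the cell type markers Cd14, Ptprc, Acta2, Adipoq and Cfd and the labelled knockout gene Xbp1.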

Additional observations from a re-analysis of the deposited data

How the results depend on the processing

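Median scaling over all gene probes gave log2 differences of 1.14 for Ptgs1, 1.09 for Ptgs2, -0.55 for Ptges and -1.15 for Ptgis, so that 1 of the 10 genes was 2-fold lower as read. Of 65 detected genes in the 5 other lists, 11 were higher and 9 lower, beside 7.78% and 24.3% of all detected genes. In the main setting 19 and 4 of 65 were, beside 12.8% and 10.3%. With no normalization the values were 2.23 for Ptgs1, 2.18 for Ptgs2, 0.54 for Ptges, -0.060 for Ptgis, 1.70 for Ptger2 and 0.86 for Ptgir, with 4 of the 10 genes at least 2-fold higher, among them Ptgfr at 1.19, and a median of 1.19. Of 67 other-list genes, 31 were higher and 2 lower, beside 35.7% and 2.85% of all detected genes. Where the scaling used only probes detected on both days, Ptgir gave 0.31.

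Averaging a gene's detected probes gave 1.12 for Ptgs1 and 1.33 for Ptgs2. With no detection filter, and with the threshold at the 95th percentile of empty spots, Ptgds counted as 1 gene 2-fold lower (-2.27) and 8 other-list genes were lower, of 83 and of 81. Over all genes counted in these settings, 10.8% and 11.5% were lower. The median of the members was 0.051 with no filter, where all 10 enter, and 1.05 in the authors' deposited table, where 5 have a value. Requiring both days above the threshold left 12 of 53 other-list genes higher, beside 10.1% of all. The authors' deposited table gave 9 higher and 2 lower of 45, beside 9.91% and 8.46% of all genes in it. The offset of 50 gave 2 lower of 65, beside 8.35% of all detected genes. A fold threshold of 1.5 gave 10 lower of 65, beside 21.0% of all detected genes. Ptgfr, below the threshold in the main setting, gave -0.27 under cyclic loess. With 1 sample per day no replicate could be left out. No paired analysis was possible because each day has 1 sample.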

Other observations

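Genes of the leukotriene and other eicosanoid branches are described here by name. All 17 listed were on the array, and of the 10 detected, 5 passed 2-fold toward day 3 (4 when signals below the threshold were raised to it) and 1 toward day 0. Of all detected genes, 12.8% passed it toward day 3 and 10.3% toward day 0 (10.2% and 8.51% with signals so raised). The median was 1.10, and 0.79 with those signals raised to the threshold. Ephx2, the soluble epoxide hydrolase, read 2163 on day 3 and 596.5 on day 0, and the log2 difference was 1.86. Cyp4f13, a cytochrome P450 of the family that oxidises leukotrienes and arachidonic acid, read 1971.25 on day 3 and 772 on day 0, so the log2 values differed by 1.35. Ltb4r1, a leukotriene B4 receptor, read 283 on day 3 and 21.5 on day 0 and was at least 2.32-fold higher. The lipoxygenase genes Aloxe3 (247 on day 3 and 104 on day 0) and Alox12 (191 on day 3 and 59 on day 0) were at least 2.02-fold and 1.57-fold higher. Cysltr1, a receptor for cysteinyl leukotrienes, read 156.75 on day 3 and 345 on day 0 (log2 difference -1.14). Alox5, the lipoxygenase that begins leukotriene synthesis, was below the threshold with 64.5 on day 3 and 69.5 on day 0, and Ltc4s read 205.5 on day 3 and 143.5 on day 0.

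Of 16 genes for the G protein coupling of prostanoid receptors, 12 were detected, with a median of 0.056. Of these, 2 were at least 2-fold higher and 1 was at least 2-fold lower, beside 12.8% and 10.3% of all detected genes. Arrb1, which encodes an arrestin that desensitises receptors, read 1163.25 on day 3 and 455.25 on day 0 (1.35), and its other probes gave 0.78 and 0.66. Adcy6, an adenylyl cyclase, read 6032.5 on day 3 and 2674.25 on day 0 (1.17). Plcb1, a phospholipase C that acts downstream of Gq, read 151.5 on day 3 and 321.75 on day 0 (-1.09). Gnas, the stimulatory G protein gene, read 677.5 on day 3 and 846.5 on day 0 (-0.32).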
